A study of Arabidopsis thaliana with 12 samples.

Results

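PSBW (AT2G30570), PSBY (AT1G67740) and LHB1B2 (AT2G34420) are 3 nuclear genes for proteins of photosystem II and its antenna, and their transcripts were measured in Arabidopsis thaliana given water or paraquat. They were chosen by name, and each was read from an array probe that lists no other gene; there is 1 such probe for each, among 692 probes with 1 gene and 3439 probes in all. The 12 samples were total RNA of wild-type plants of the Landsberg ecotype, which spent 12 h in darkness and were then put back in the light for 30 min. Of these, 6 samples came from plants given water as control and 6 from plants given 50 µM paraquat, a bipyridinium herbicide that diverts electrons of illuminated photosystem I to oxygen. The labels name no tissue, no plant age and no pooling. They number the samples 1 to 6 in each group without saying what a number stands for, so the tests below measure a spread that may be technical.

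Photosystem II splits water in the thylakoid membrane of the chloroplast and passes the electrons on towards photosystem I. Its core is built of plastid-encoded and nuclear-encoded proteins, several of them small and membrane-spanning, and it is surrounded by trimers of light-harvesting chlorophyll-binding proteins. PSBW encodes PsbW, a small membrane protein of the core that helps to hold the core and its antenna together. PSBY encodes a precursor that is cut into small membrane proteins which sit near cytochrome b559. LHB1B2 encodes an Lhcb1 protein, the main component of the antenna trimers. Lhcb1 is made from a family of near-identical genes, and transcripts of the relatives of LHB1B2 may bind the same probe, so its values are uncertain as to which family members they measure.

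The antenna gene LHB1B2 was lower under paraquat in all 6 numbered pairs of samples, and its groups did not overlap, as deposited and after quantile normalization. After each sample was centred by probe position, described below, it was lower in 4 of 6 pairs, the groups overlapped and the call was lost (-0.20 on the log2 scale; limma, adjusted p = 0.36). PSBW, by contrast, was near its water level in the deposited values and higher after quantile normalization. PSBY was a little lower after that normalization. Within the same samples LHB1B2 fell relative to PSBW, by 1.71-fold as deposited and 2.001-fold after quantile normalization.

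The values are array intensities in the authors' linear units, scaled before deposit in a way that the labels do not state. The water samples had medians of 0.443 to 0.491, the paraquat samples of 0.563 to 0.635. For the fit the samples were quantile normalized, which gives every sample the same set of values in its own order, and log2 was taken. Of all 3439 probes, 1805 then differed (limma, adjusted p under 0.05), 826 higher and 979 lower, which is 52.5% in either direction. With the values as deposited 1111 were higher and 738 lower, and the median log2 change of all probes was 0.19 as deposited, -0.04 after quantile normalization and -0.16 after centring each sample on its median. Directions are therefore relative to the bulk of the probes. As deposited, numbers 1 and 2 went against numbers 3 to 6 for PSBW and PSBY, as given below. Neighbouring numbers (1 and 2, 3 and 4, 5 and 6) may be repeated readings, so results are also given with neighbours averaged.

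For LHB1B2 the deposited intensity had a lowest value of 15.4, a median of 16.4 and a highest value of 23.3 under water. Under paraquat the lowest value was 9.26, the median 10.4 and the highest 13.1. Every paraquat sample lay below every water sample, as was so for 14.6% of all probes. The mean went from 17.5 ± 2.98 to 10.8 ± 1.38 (SD, n = 6 each), a ratio of 0.616. After quantile normalization LHB1B2 fell by 0.66 ± 0.13 on the log2 scale (SE, 6 samples a group), which is 1.58-fold lower (limma, adjusted p = 0.00141). On that scale the fall is a move in rank among the brightest probes. LHB1B2 was the 12th to 20th brightest probe under water and the 25th to 32nd under paraquat. In RNA of whole samples, fewer cells of a type and less transcript per cell cannot be told apart. Falls of this kind were common: 28.5% of all probes were called lower, and in 20% the quantile normalized groups did not overlap with paraquat the lower.

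**Figure D1:**
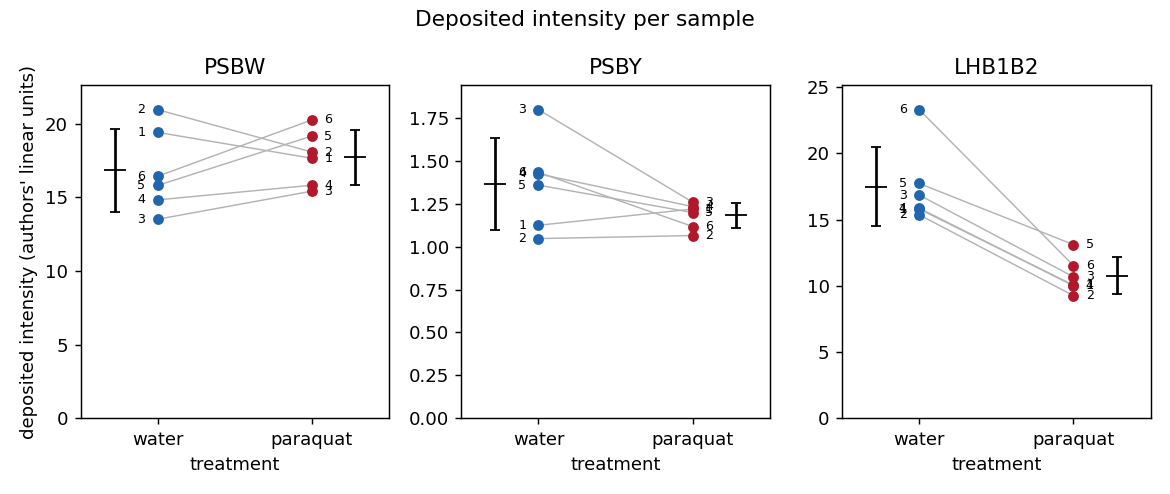
Deposited intensity (linear, authors' units) of PSBW, PSBY and LHB1B2 in the 6 water and 6 paraquat samples. Points carry the sample number, grey lines join equal numbers, and black bars give the mean and SD; for LHB1B2 all paraquat samples (highest 13.1) lie below all water samples (lowest 15.4), while the groups overlap for PSBW and PSBY.

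In the deposited values the fall of LHB1B2 was of like size in each set of neighbouring numbers. The log2 change was -0.69 over numbers 1 and 2, -0.66 over numbers 3 and 4, and -0.73 over numbers 5 and 6. In single pairs it ran from -0.44 (number 5) to -1.02 (number 6), and number 6 stood out through its water sample of 23.3. With neighbours averaged, which leaves 3 values a group, LHB1B2 passed the test again (limma, adjusted p = 0.0385), as did 19.4% of all probes in that direction. Its size depended on the scaling, from -0.38 with cyclic loess to -1.04 with median centring, and it passed under both, with 27% and 32.4% of all probes called lower. Centring by probe position, described below, brought it to -0.20, which did not pass (limma, adjusted p = 0.36). The sets of neighbouring numbers then differed, with 0.07 over numbers 1 and 2, -0.19 over numbers 3 and 4, and -0.49 over numbers 5 and 6.

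PSBW had deposited values with a lowest of 13.5, a median of 16.1 and a highest of 20.9 under water. Under paraquat they had a lowest of 15.4, a median of 17.9 and a highest of 20.2. The groups overlapped over most of their range. The means were 16.8 ± 2.82 and 17.7 ± 1.87 (SD, n = 6 each), a ratio of 1.05. The direction parted by sample number, since paraquat was lower in numbers 1 and 2 and higher in numbers 3 to 6. Over numbers 1 and 2 the mean intensity went from 20.2 to 17.9, a log2 change of -0.17. Over numbers 3 to 6 it went from 15.1 to 17.7, a log2 change of 0.22.

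After quantile normalization PSBW rose by 0.34 ± 0.09 on the log2 scale (SE, 6 samples a group; limma, adjusted p = 0.00721), which is 1.27-fold, and it was higher in all 6 numbered pairs. The background for such a call is 24% of all probes. PSBW is among the brightest probes of the filter, so this change is a move of a few places: it was the 16th to 22nd brightest probe under water and the 14th to 16th under paraquat. As deposited its log2 change was 0.09 (limma, adjusted p = 0.6), and with each sample centred on its median it was -0.26 (adjusted p = 0.156). With neighbours averaged the quantile normalized change of 0.34 did not pass (limma, adjusted p = 0.123), so neither the direction nor the call of PSBW is independent of the processing.

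The PSBY signal lay at 1.72 to 3.66 times the sample median. Its deposited intensity had a lowest value of 1.05, a median of 1.39 and a highest of 1.80 under water. Under paraquat the lowest was 1.07, the median 1.21 and the highest 1.26. The paraquat samples lay inside the range of the water samples and closer together. The means were 1.36 ± 0.267 and 1.18 ± 0.0752 (SD, n = 6 each), a ratio of 0.866. PSBY showed the reverse of PSBW across the sample numbers: as deposited its log2 change was 0.07 over numbers 1 and 2 and -0.32 over numbers 3 to 6.

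After quantile normalization PSBY fell by 0.38 ± 0.12 on the log2 scale (SE, 6 samples a group; limma, adjusted p = 0.0203), and it was lower in all 6 numbered pairs. The background for such a call is 28.5% of all probes. As deposited the PSBY change was -0.19 (limma, adjusted p = 0.248). With neighbours averaged it did not pass (limma, adjusted p = 0.148).

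**Figure D2:**
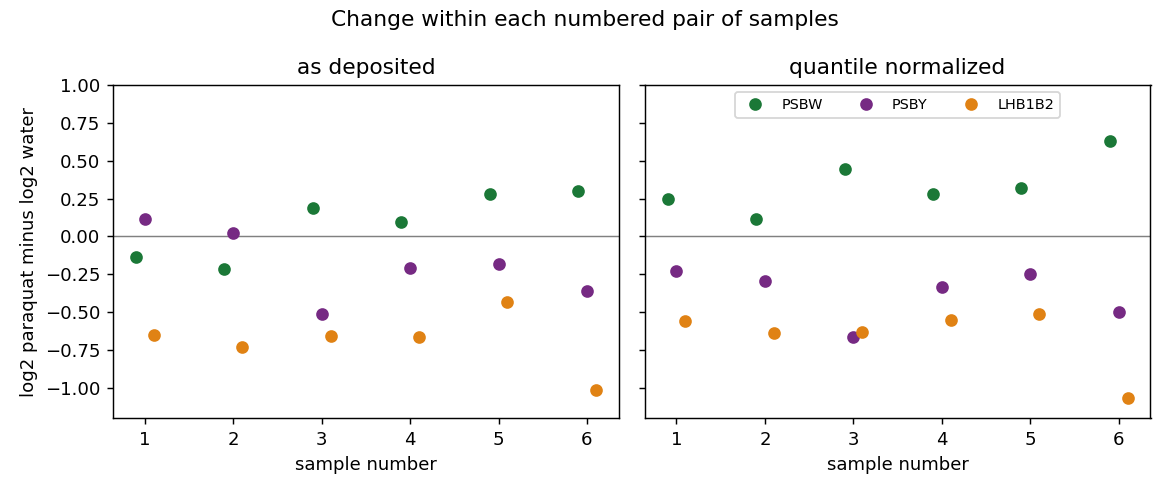
Log2 paraquat minus log2 water within each numbered pair of samples (x axis), as deposited on the left and after quantile normalization on the right, for PSBW, PSBY and LHB1B2. LHB1B2 lies below 0 in every pair on both scales, whereas PSBW and PSBY change sides between numbers 1 and 2 and numbers 3 to 6 as deposited.

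Neighbouring numbers were closer to each other than their means were to the means of the other neighbours. For PSBW, as deposited, the SD of its log2 values was 0.0593 within neighbouring numbers and 0.218 between their means. For PSBY these were 0.122 and 0.207, for LHB1B2 0.136 and 0.193, and over all probes without zeros the medians were 0.201 and 0.294. After quantile normalization the values were 0.0833 and 0.132 for PSBW, and 0.201 and 0.289 over all probes, so the wide gap between both SDs of PSBW was found as deposited and was much smaller on the scale of the fit.

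The ratio of a pair of probes within a sample does not depend on how that sample was scaled as deposited, so the 3 differences between the genes' responses were tested, with p-values adjusted over the 3 by Benjamini-Hochberg. On the deposited values the log2 ratio of PSBW to LHB1B2 was higher under paraquat by 0.78, which is a change of the ratio by 1.71-fold. It was higher in 6 of 6 numbered pairs, with pair changes between 0.52 and 1.32, and the groups did not overlap (exact permutation test, two-sided, p = 0.00216, the smallest it can give; adjusted p = 0.00649). After quantile normalization the same ratio moved by 1.001, or 2.001-fold (exact permutation test, adjusted p = 0.00649). These tests treat the 12 samples as independent. On the quantile normalized scale, the replicate number as a block gave an adjusted p of 0.0469 (exact sign-flip test over 6 pairs). With neighbours averaged the ratio could not pass (exact permutation test, adjusted p = 0.15), since 3 against 3 cannot go below p = 0.1. LHB1B2 thus fell relative to PSBW on both scales.

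The ratio of PSBY to LHB1B2 was higher under paraquat by 0.51 on the deposited log2 scale, in 6 of 6 pairs (exact permutation test, two-sided, p = 0.00866, adjusted p = 0.013). After quantile normalization the difference was 0.28, in 5 of 6 pairs (exact permutation test, adjusted p = 0.0303). It did not pass with the replicate number as a block (exact sign-flip test over 6 pairs, adjusted p = 0.0625). The ratio of PSBW to PSBY was higher by 0.27 as deposited, in 4 of 6 pairs (exact permutation test, two-sided, adjusted p = 0.273). After quantile normalization it was higher by 0.72, in 6 of 6 pairs (exact permutation test, adjusted p = 0.00649). Among these 3 pairs, PSBW and LHB1B2 were therefore the one that parted on both scales with no overlap. How often other pairs of probes on the array part in this way was not tested.

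**Figure D3:**
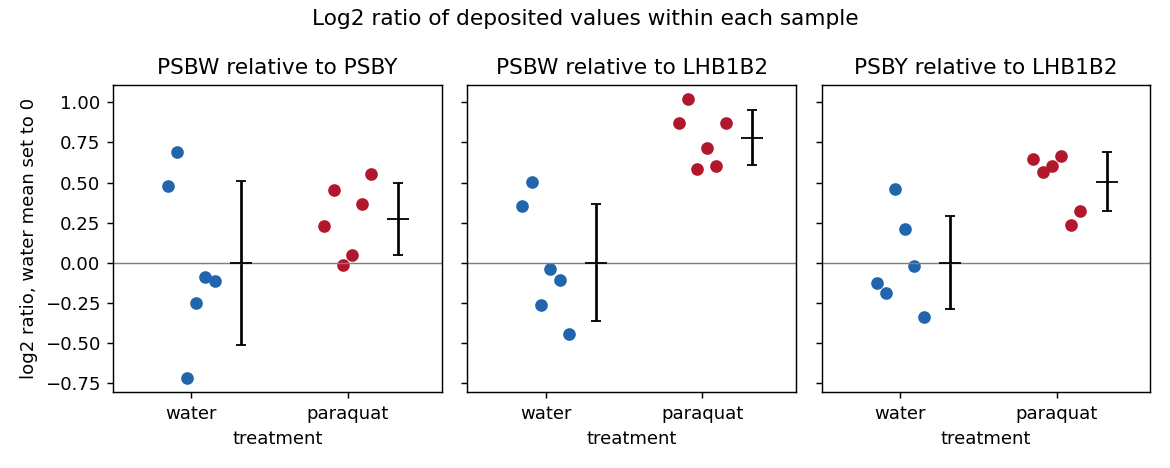
Log2 ratio of the deposited values of 2 genes within each sample, with the mean of the water samples set to 0 in each panel; black bars give mean and SD over 6 samples. The ratio of PSBW to LHB1B2 is higher under paraquat by 0.78 with no overlap, while the groups overlap in the other panels.

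Log2 changes on this filter also followed the probe number, which repeats in a period of 288 and was divided into 24 steps of 12 numbers, counted from 0. Median log2 changes of the steps ran from -0.77 to 0.61. All 3 genes lie in the low stretch: PSBY in step 1, and PSBW and LHB1B2 both in step 6. The other 136 probes of step 6 had a median log2 change of -0.55 around LHB1B2, whose own change was -0.66, and 44.1% of them changed further downward than it did. PSBW, at 0.34, was above 86.8% of the other probes of that step. The 143 other probes of step 1 had a median of -0.60 against -0.38 for PSBY.

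**Figure D4:**
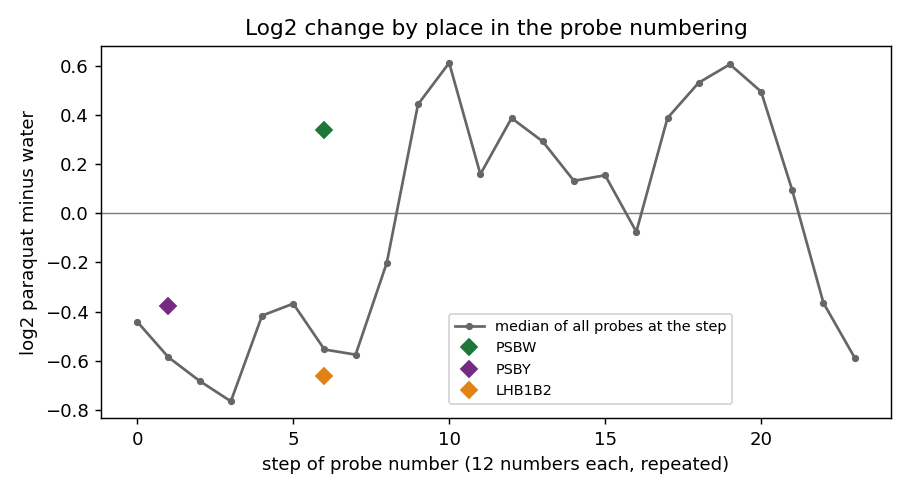
Median log2 change, paraquat minus water after quantile normalization, of all probes at each of the 24 steps of probe number (grey), with the 3 genes at their own steps. All 3 lie in the low stretch of steps 0 to 7, with LHB1B2 just below the median of its step and PSBY and PSBW above theirs.

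Centring each sample by step left LHB1B2 at -0.20 (limma, adjusted p = 0.36), put PSBY at 0.16 (adjusted p = 0.471) and raised PSBW to 0.80 (adjusted p = 6.64e-06), with 21.2% of all probes called higher. The step medians come from all probes, most of them far dimmer than PSBW and LHB1B2. Among the 343 brightest probes, both genes included, the 27 others at step 6 had a median log2 change of 0.03 around LHB1B2 and -0.06 around PSBW, against -0.73 for the 28 probes of that step in the dimmest class of 1147. The next brightness class at step 6, with 33 probes, was at -0.55. At step 1 the brightest probes were low as well, with a median of -0.63 for 13 probes, against -0.76 for the 44 dimmest. Centring by step within 4 brightness classes, an alternative chosen after the data were seen, gave -0.67 ± 0.15 for LHB1B2 (SE; limma, adjusted p = 0.00322) and 0.33 ± 0.08 for PSBW (SE; adjusted p = 0.00591). LHB1B2 was then lower and PSBW higher in all 6 pairs, with 26.9% of all probes called lower and 20.3% higher. For PSBY, in the next brightness class, the value was 0.28 ± 0.17 (SE; adjusted p = 0.206), so its fall was not found under either centring. Because PSBW and LHB1B2 share a step, the change of 1.001 in their log2 ratio was the same under both centrings.

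**Figure D5:**
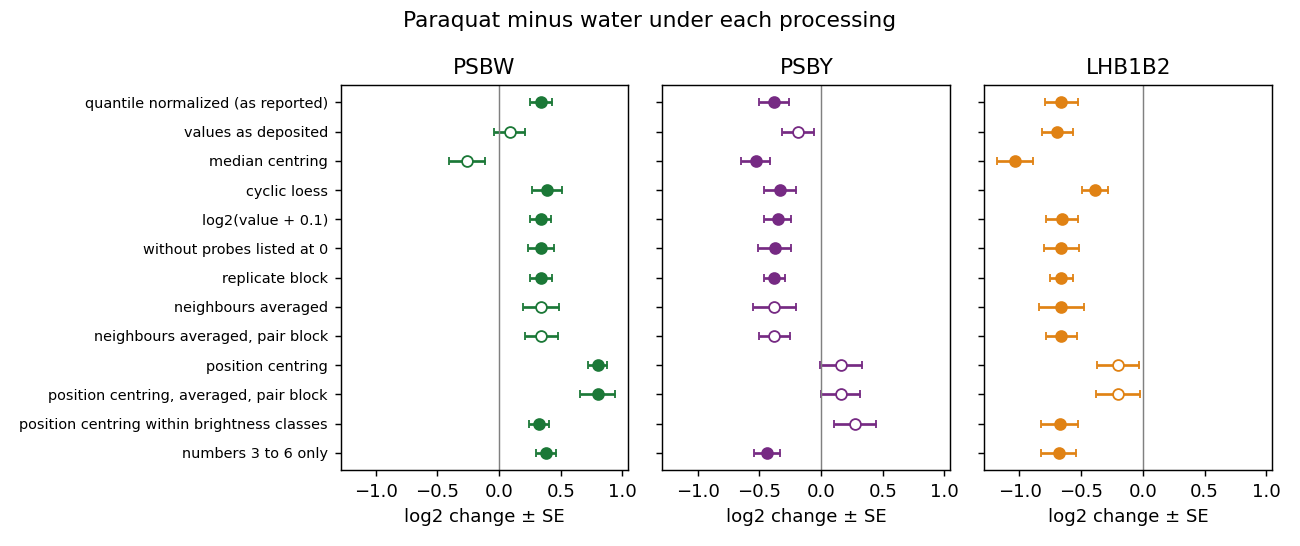
Log2 change with SE for the 3 genes under each processing; filled points passed the limma test (adjusted p under 0.05) and open points did not. LHB1B2 is below 0 throughout, from -1.04 to -0.20, PSBW runs from -0.26 to 0.80, and PSBY from -0.53 to 0.28.

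Other genes of the light reactions were few on this array. Lists of photosystem II and I subunits, antennae, electron carriers, ATP synthase, and factors of assembly, repair and antenna regulation held 79 genes. Of these, 5 had a probe of their own: the 3 genes above, PSB27 and PSAN. Of these 5, 1 rose and 2 fell, where 24% of all probes were called higher and 28.5% lower, and the median log2 change was -0.06 against -0.04 for all probes. Those called were the 3 genes above, and neither PSB27 nor PSAN was called after quantile normalization. The counts depended on the processing: 0 rose and 1 fell as deposited (median -0.19), 0 rose and 3 fell with median centring (median -0.53), and 2 rose and 0 fell after centring by step (median 0.45). Neither root nor pollen marker genes (5 and 4 listed) had a probe of their own, so the material could not be checked against them.

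PSB27 (AT1G03600), a lumenal factor in the assembly and repair of photosystem II, had a lowest deposited value of 0.227 and a highest of 1.41 under water, and of 0.443 and 1.42 under paraquat. In both groups samples 1 and 2 were the lowest. Its log2 change was -0.03 ± 0.47 (SE, 6 samples a group; limma, adjusted p = 0.975), with a 95% interval from limma of -1.06 to 1.01 and, with the replicate number as a block, of -0.41 to 0.36 (limma, adjusted p = 0.909). PSAN (AT5G64040), a lumenal subunit of photosystem I, had deposited means of 6.55 ± 1.73 and 5.34 ± 1.28 (SD, n = 6 each). Its log2 change was -0.06 (limma, adjusted p = 0.828), and 0.45 after centring by step (adjusted p = 0.0389).

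A further 6 probes list genes of these lists together with other genes and are not named for that reason. Of these, 5 were called lower, with log2 changes from -1.14 to -0.84, and 0 higher. The remaining probe was at -1.21 with an SE of 1.5 and did not pass (limma, adjusted p = 0.53). The median of all 6 was -1.08. The same counts, 5 lower and 0 higher, were found as deposited, with median centring, with cyclic loess and after centring by step; 3 were lower with averaged neighbours and a block for each pair, and 1 was lower when centring by step was added to these. The share of all probes called lower was 28.5%, 21.5% as deposited, 32.4% with median centring, 27% with cyclic loess, 26.2% after centring by step and 20% with averaging and the block, and 14.8% with centring by step added. One of the lower probes lists 3 genes, at least 1 of them an antenna gene of photosystem II. Its log2 change was -0.97 with an SE of 0.14 (limma, adjusted p = 0.00012). Another 2 list electron carriers or ATP synthase subunits (-0.84 and -1.14). The remaining 3 list factors of photosystem II assembly, repair or antenna regulation, of which 2 passed.

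The genes most like each of the 3 in pattern were sought among 635 other probes with 1 gene and no zeros, by the root mean square difference of centred log2 values over the 12 samples, which is a description only. Closest to LHB1B2 were AT3G12930 (difference 0.158, log2 change -0.84), the sulfiredoxin gene SRX (0.181, -0.44), whose product restores overoxidised peroxiredoxins, and DRT101 (0.19, -0.71). The median difference of all probes from LHB1B2 was 0.602. Closest to PSBW were AT2G27290 (0.165, log2 change 0.54), AT2G47360 (0.168, 0.13) and Z-ISO (0.172, 0.34), an isomerase of carotenoid synthesis. Closest to PSBY were AT2G43760 (0.158, log2 change -0.34), AT2G01400 (0.176, -0.31) and AT1G06510 (0.182, -0.24). After centring by step, the log2 changes of SRX (-0.14) and DRT101 (-0.22) were near that of LHB1B2 (-0.20), those of Z-ISO (0.79) and AT2G27290 (0.65) near that of PSBW (0.80), and that of AT2G43760 (0.16) equal to that of PSBY (0.16) to 2 decimals. The others parted, with AT3G12930 at -1.35, AT2G47360 at 0.09, AT2G01400 at -0.68 and AT1G06510 at -0.76. Genes that stayed near lie in steps 2, 4, 5, 8 and 23, whose median log2 changes ran from -0.68 to -0.20. Those that parted lie in steps 12, 13 and 21, with medians from 0.09 to 0.39. Because all were picked before centring, this comparison mostly restates the step of each probe and is no further sign of likeness.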

How the data were processed

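The authors deposited linear array intensities, 1 value per probe and sample; scanner, background correction and the reference of the scaling are not given in the sources used here. Gene names came from the platform annotation and were brought up to date through RefSeq (TAIR10.1; 690 of 692 probes with 1 gene matched); 870 probes list several genes and 1877 are not listed. Zeros took their sample's smallest value above 0, then the samples were quantile normalized and log2 taken. All 3439 probes were fitted with lmFit and eBayes of limma 3.58.1 (R 4.3.3), two-sided, with Benjamini-Hochberg adjustment over all probes and a threshold of 0.05. Ratios within samples were tested by exact permutation over samples (scipy 1.17.1). The fit was checked on simulated data with independent samples. That check does not cover linked sample numbers or changes that follow the probe number. Deviations of equally numbered samples from their group means correlated at 0.337 to 0.505 over 3186 probes, each best with its own number, so the numbers pair the samples, from the data and not the labels. Genes named are the 3 members, list genes with a probe of their own and the 3 most alike per member. Members and lists were chosen with earlier results of these data known. The number of samples limits the precision.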

Additional observations from a re-analysis of the deposited data

Results flagged for a closer look

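In 1 of 12 groups of 6 values tested for a sample far from the others (the 3 genes and their 3 log2 ratios, in each treatment), the gap to the nearest sample exceeded Dixon's 95% limit; chance gives about 0.6. It was LHB1B2 in water replicate 6, at 4.63 on the quantile normalized log2 scale against 3.87 to 4.15 in the other water samples. Without that sample LHB1B2 was still lower under paraquat, by a log2 change of -0.55 (limma, adjusted p = 0.000736).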

How the results depend on the processing

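Leaving out each of the 12 samples in turn kept the call and direction of PSBW (0.32 to 0.37), PSBY (-0.44 to -0.29), LHB1B2 (-0.70 to -0.55), of the differences PSBW minus PSBY (0.61 to 0.82) and PSBW minus LHB1B2 (0.85 to 1.09), and gave 1681 to 1813 changed probes. The difference PSBY minus LHB1B2 (0.19 to 0.35) lost its call without water replicate 1, 2, 5 or 6 or paraquat replicate 1, 3 or 4, with an adjusted p of up to 0.0606 (exact permutation test). The replicate block changed the call of that difference only (0.28, adjusted p = 0.0625) and gave 1964 changed probes. With neighbours averaged 1160 probes changed, PSBW (0.34) and PSBY (-0.38) lost their calls with and without the pair as a block, and the 3 differences (0.72, 1.001 and 0.28) could not pass, since 3 against 3 cannot go below p = 0.1 in an exact permutation test. As deposited PSBW was at 0.086, PSBY at -0.19 and PSBW minus PSBY at 0.27, none of them called; median centring put PSBW at -0.26. Centring by step put PSBY at 0.16 and LHB1B2 at -0.20, also with neighbours averaged and the pair as a block, where 926 probes changed. PSBW was at 0.80 in that last setting and kept its call (limma, adjusted p = 0.0294), with 418 of all 3439 probes called higher. Centring within brightness classes put PSBY at 0.28 and PSBW minus PSBY at 0.048. With numbers 3 to 6 only, chosen after seeing the data, PSBW was at 0.38, PSBY at -0.44 and LHB1B2 at -0.68, all called, and PSBY minus LHB1B2 at 0.25 was not called. In that setting 758 of all 3439 probes were called higher and 939 lower. The brightest class held as few as 4 probes at a step. The cause of these differences was not tested.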
